A study of Arabidopsis thaliana with 20 samples.

Results

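The values below describe 114 probe sets, of 22746 that are not array controls, whose level was much lower in darkened than in illuminated roots of Arabidopsis thaliana while the shoots of the same treatments hardly moved. They are called the root darkness set here. A probe set entered when its mean log2 value in dark roots lay at least 2.5 below that in light roots, a 5.66-fold difference, at both 7 and 24 h, and when the mean in dark shoots lay within 0.7 of that in light shoots at both times. Measured values therefore chose the members, and darkness minus light is given for them as a description with no test. In roots alone 236 probe sets met the first condition, and 122 of these were left out because the shoots had moved further than 0.7.

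All plants were wild-type Col-0 grown singly in pots of soil and perlite at 20 °C with a light period of 9 h, and all carried a rosette of 9 to 10 leaves. Whole roots and whole shoots were each sampled in 5 states: in light at 0 h, in darkness in air for 7 or 24 h, and under water in darkness for 7 or 24 h. Treatments began 2 h into the light period. Each of the 10 groups held 2 Affymetrix ATH1 arrays, given as independent biological replicates, and this number limits the precision. The light plants were sampled at the start alone and were watered daily, whereas the dark plants were watered every other day, so darkness, time of day at 7 h, time in the chamber and watering cannot be told apart. A whole root holds many cell types, so that fewer cells of a type and less RNA per cell cannot be told apart either.

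Roots cannot fix carbon and grow on sugar sent down from illuminated leaves. Root hairs, tubular outgrowths of epidermal cells, elongate at their tips, and this growth needs a wall that is loosened, filled with new polymer and then strengthened. Expansins loosen the wall, xyloglucan endotransglucosylase/hydrolases (XTHs) break and rejoin its xyloglucan chains, glucanases trim glucan chains, and extensin-type glycoproteins and peroxidases take part in stiffening it.

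The organs were checked with marker genes. All 6 measured shoot markers were brighter on every shoot array than on every root array, and both measured root markers were brighter on every root array. EXPA7, a member of the set, is one of these 2 root genes. The mean of the shoot markers on root arrays was 4.386 and 4.768 in light and 5.008 to 5.566 in the dark and submerged states, so it was a little higher where the members were low. In dark minus light roots at 7 and 24 h LHCB4.2 gave 2.111 and 2.475 and RCA 1.237 and 0.719. The other measured shoot markers lay between -0.165 and 0.426. The part of this rise in the results was not tested. Array medians over all probe sets lay between 6.134 and 6.405, and the deposited log2 values ran from 2.834 to 15.02.

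In light roots the median member stood at 9.10 and 8.86 on the 2 arrays. After 7 h of darkness it stood at 5.10 and 5.47, and after 24 h at 4.91 and 5.00. In shoots it lay between 4.27 and 4.44 on all 10 arrays. Every dark root array lay below every light root array for all 114 members, which the rule nearly fixes. The median difference of dark from light roots was -3.33 at 7 h, with a range from -7.35 to -2.53, and -3.61 at 24 h, with a range from -7.27 to -2.59. Over all probe sets the medians were 0.08 and 0.10.

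**Figure D1:**
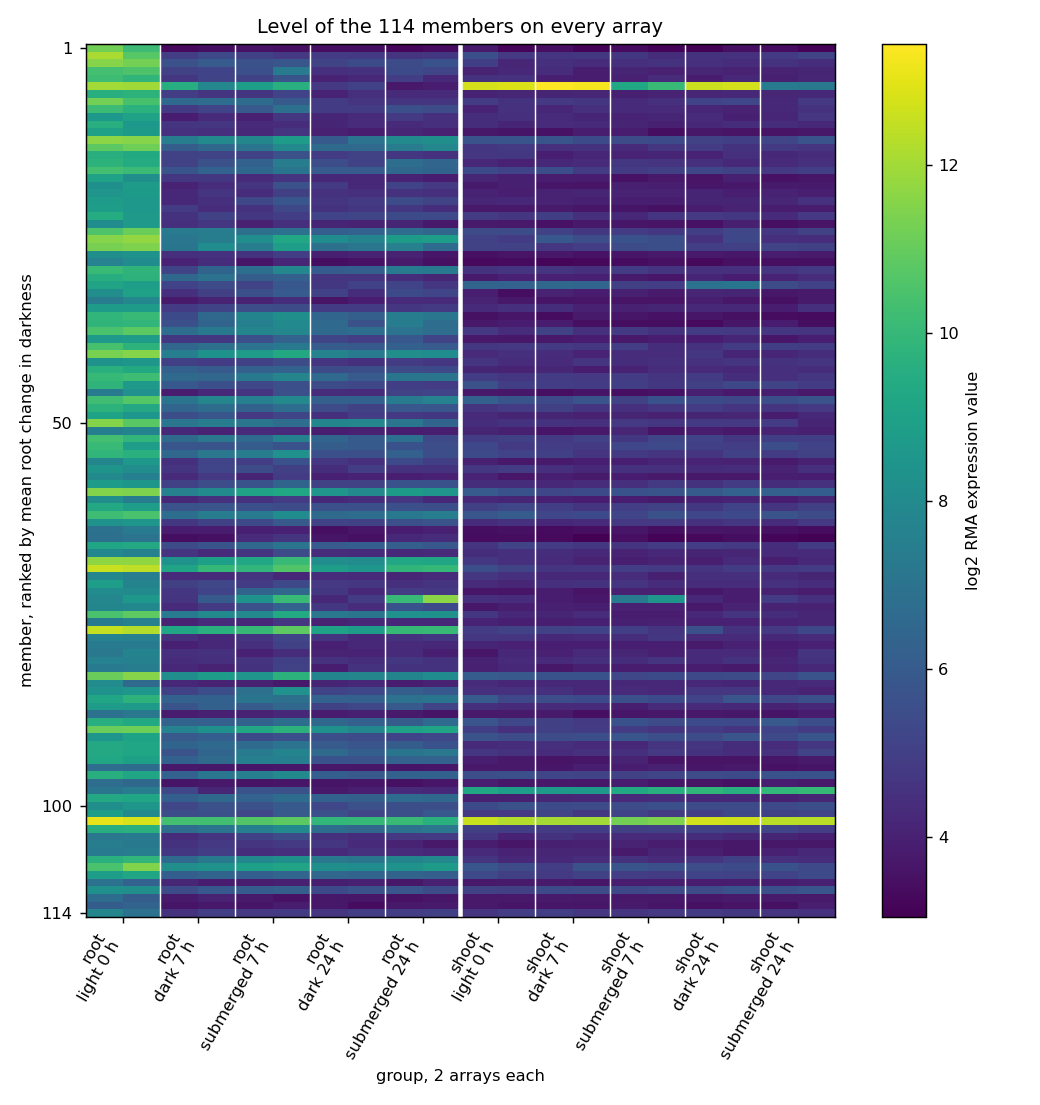
Each row is 1 of the 114 members and each column 1 of the 20 arrays, with colour giving the log2 expression value and rows ranked by the mean difference of dark from light roots. In every row the 2 light root arrays at the left are brighter than the dark root arrays, and most rows are dim on all 10 shoot arrays. The row of 260869_at is brighter in submerged roots at 24 h (10.07 and 11.65) than in light.

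Most members were bright in roots alone. All 10 shoot arrays lay below a log2 value of 6 for 104 of the 114, a level below the median of every array, and 112 members were brighter in light roots than in light shoots, with a median difference of 4.42. For these members a small shoot difference between darkness and light is a difference between low signals. The light arrays of both organs had also helped to choose the members, and the rule favours probe sets bright in light roots. These counts are thus a description with no test, and no share over all probe sets is given. In dark roots at 24 h, 78 members had a mean within 1 of their mean in light shoots, and 69 had both dark root means below 6. The rule asked for the difference at 7 h as well as at 24 h, so a probe set with a late fall alone could not enter. Between 7 and 24 h of darkness 76 members moved by no more than 0.5, while 35 were lower by over 0.5 and 3 higher by over 0.5. For the 69 members below 6 a further fall may not show.

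Of the 114 probe sets 63 named 1 gene, 5 named several and 46 named none in the probe table. Loci without a symbol are given by locus tag, and unnamed or shared probe sets by their identifier. Of the named genes 11 were singled out by name, after the members were known, because they act on or lie in the cell wall. The pick used descriptive symbols and synonyms, so members without such a name were not searched for a wall role. Further wall genes may lie among them, and the wall gene shares below do not count those. These 11 genes, called the wall genes below, are EXPA7, EXPA18, XTH20, XTH21, XTH26, GH9C1, HRGP1, AT5G19800, sks15, sks16 and AT2G41480.

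EXPA7 and EXPA18 encode alpha-expansins of root hair cells. EXPA7 read 9.67 and 9.88 in light roots, 6.60 and 7.25 after 7 h of darkness and 7.2 and 7.04 after 24 h. EXPA18 read 10.34 and 10.14 in light, 5.75 and 6.33 at 7 h of darkness and 6.05 and 6.02 at 24 h. The dark arrays of both genes lay below the light arrays by more than any replicate gap, and the 24 h values lay within the range of those at 7 h. In shoots EXPA7 stayed between 4.25 and 5.02 and EXPA18 between 4.79 and 5.55.

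The set held 3 xyloglucan enzymes. XTH26, a root hair member of the family, read 7.81 and 7.90 in light roots, 4.33 and 4.81 at 7 h and 4.72 and 4.36 at 24 h of darkness. XTH20 read 9.65 and 9.35 in light, 6.23 and 5.99 at 7 h and 5.44 and 5.55 at 24 h. XTH21 read 6.92 and 7.21 in light, 3.87 and 4.01 at 7 h and 3.85 and 3.98 at 24 h, close to its range of 3.49 to 3.84 in shoots. Of the 3, XTH20 alone was lower on both dark arrays at 24 h than on either at 7 h.

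GH9C1, an endo-beta-1,4-glucanase of glycosyl hydrolase family 9, read 9.31 and 9.21 in light roots, 5.71 and 6.45 at 7 h and 6.63 and 6.14 at 24 h of darkness. HRGP1, a hydroxyproline-rich glycoprotein of the extensin type, read 11.07 and 11.56 in light, 8.14 and 8.77 at 7 h and 7.75 and 7.77 at 24 h. Its probe set is of the kind that may bind related transcripts, and so its value may hold more than 1 gene. AT5G19800, listed also as HRGP2, read 7.46 and 7.88 in light and between 3.62 and 4.08 on the 4 dark root arrays. HRGP1 thus stayed well above its shoot range of 5.24 to 6.09 in dark roots, whereas AT5G19800 came down to its shoot range of 3.5 to 4.09.

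The genes sks15 and sks16 belong to a family similar to SKU5, a multicopper-oxidase-like protein of the cell surface that affects the direction of root growth. In light roots sks15 read 8.98 and 8.70, against 4.52 and 4.5 at 7 h and 4.00 and 3.89 at 24 h of darkness. For sks16 the values were 8.39 and 8.55 in light, 5.03 and 4.87 at 7 h and 4.64 and 4.5 at 24 h. AT2G41480, listed also as peroxidase 25, read 9.57 and 9.37 in light, 5.10 and 5.16 at 7 h and 4.88 and 5.05 at 24 h. All 3 were lower on both arrays at 24 h than on either at 7 h, by margins small beside the difference from light.

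**Figure D2:**
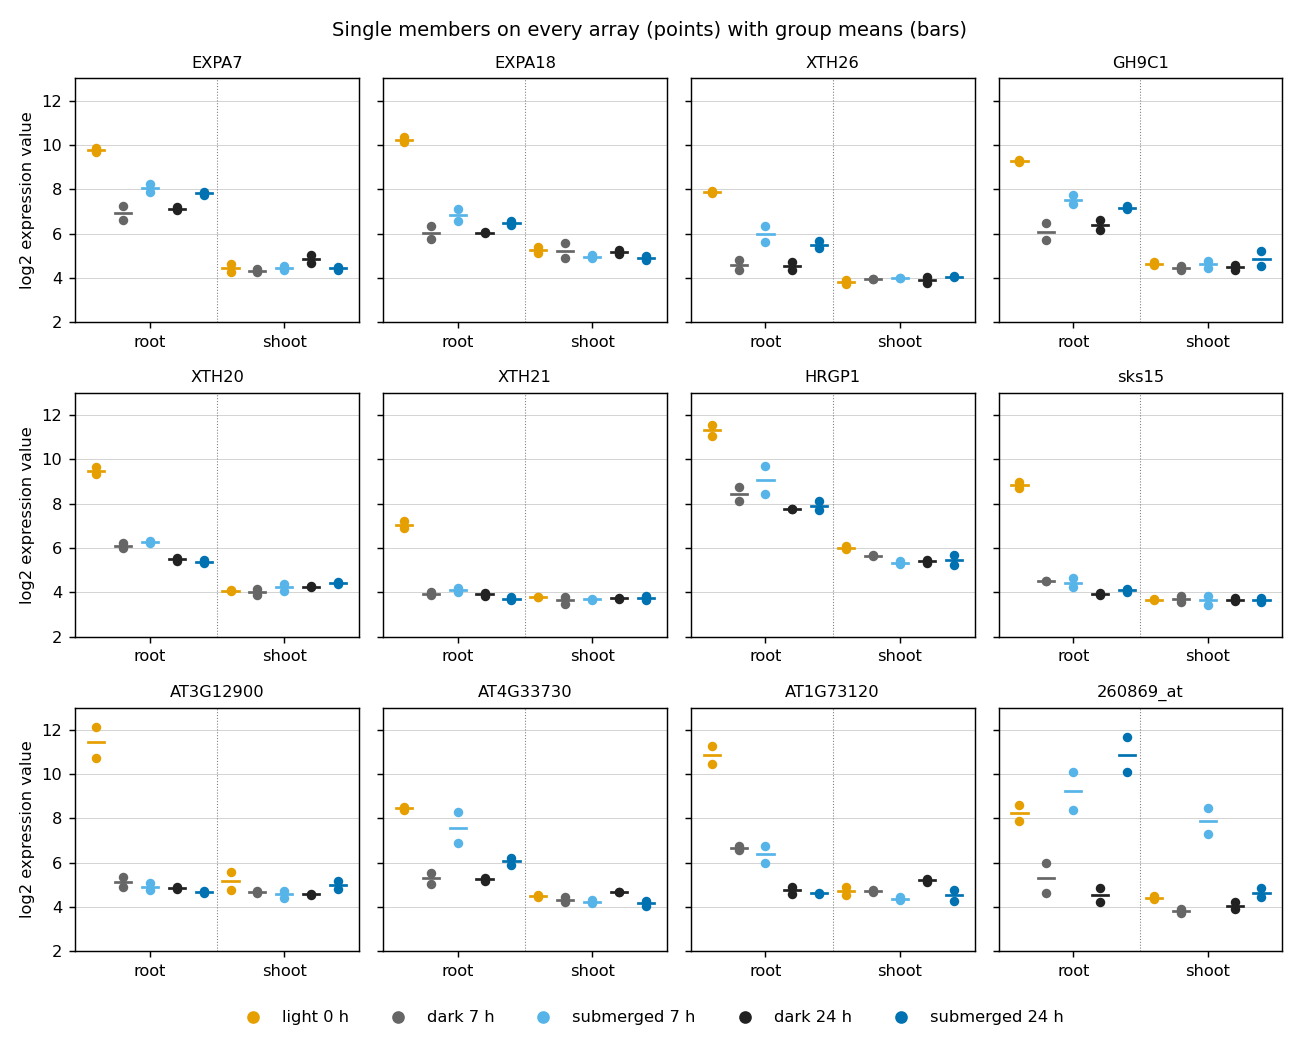
Points are single arrays and bars group means of the log2 expression value for 12 members in roots and shoots, coloured by state. For EXPA7 the 2 submerged root arrays at 7 h, 7.89 and 8.25, lie between the dark arrays and the light arrays, whereas for AT3G12900 the submerged arrays lie with the dark ones.

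The member with the largest difference that named 1 gene was AT3G12900. It read 12.13 and 10.74 in light roots, and between 4.81 and 5.35 on the 4 dark root arrays, a difference of -6.3 at 7 h and -6.57 at 24 h. The unnamed probe set 253502_at read 11.24 and 10.18 in light roots and no more than 3.81 on any other array. In both, the 2 light arrays lay over 1 apart, and even the lower of them was more than 5 above every dark root array. The next loci by size were AT4G25250, at -4.90 and -5.41 at 7 and 24 h, AT1G73120 at -4.18 and -6.10, AT4G11210 at -4.74 and -4.59, and AT5G62420 at -4.43 and -4.85.

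Some members, already far lower at 7 h, were lower again at 24 h. AT1G73120 read 6.59 and 6.77 after 7 h of darkness and 4.90 and 4.61 after 24 h, and AT4G29690 read 6.52 and 6.99 and then 4.61 and 4.62. These were 2 of 8 members lower by over 1 at 24 h than at 7 h. The next 3 genes, with other roles, were chosen after their values were seen. GSTU25, a glutathione S-transferase of the tau class, read 8.12 and 8.69 in light roots and between 4.08 and 4.71 in the dark. RALFL27, which belongs to the secreted RALF signalling peptides, read 9.30 and 9.17 in light and between 5.78 and 6.59 in the dark. ATC, a relative of the floral repressor TFL1, read 7.80 and 6.98 in light and between 4.57 and 4.98 in the dark.

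The set had a few members that were bright in shoots, and for 3 of them the mean in light shoots was 8 or more. The probe set 246481_s_at, which the table assigns to several genes, read 12.78 and 12.89 in light shoots and 11.99 and 11.97 in light roots. In dark roots it read 9.54 and 7.88 at 7 h and 4.77 and 5.05 at 24 h, while dark shoots stayed between 12.62 and 13.45. The unnamed 256964_at read 13.10 and 12.83 in light roots and 9.92 to 10.35 in dark roots, against 11.99 to 12.73 in dark shoots. The unnamed 248684_at was brighter in light shoots, at 9.30 and 8.82, than in light roots, at 7.10 and 7.44. On the 4 dark root arrays 248684_at read 5.28 or less, and 246481_s_at was below 6 at 24 h, so in darkness 256964_at alone of the 3 was above 6 on every array of both organs.

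Submerged plants were in darkness too, so their values show how far water changed what darkness alone gave. The median member stood at 5.59 and 5.96 in submerged roots at 7 h and at 5.38 and 5.2 at 24 h, above the dark arrays and far below the light arrays. Submerged root means lay at least 2.5 below the light mean in 83 of the 114 members at 7 h, in 102 at 24 h and in 82 at both. The median difference from light was -2.89 at 7 h and -3.31 at 24 h. The light root arrays and the limit of 2.5 had also chosen the members, which favours such differences. These values are a description with no test, and no share over all probe sets is given. One member, 260869_at, had a submerged mean above its light mean.

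Submergence was tested against darkness of the same duration with limma, and a probe set is called where its Benjamini-Hochberg adjusted p over all 22746 lay below 0.05. The spread in this test was pooled over roots and shoots. For members near background in shoots it may understate the spread in roots. In roots at 7 h, 39 of the 114 members (34.2%) were called higher under water and 2 (1.75%) lower. Over all probe sets 4.42% were called higher and 4.27% lower. Of the 122 probe sets with the same root difference but a larger shoot difference, 20 (16.4%) were called higher and 16 (13.1%) lower. The median member was 0.38 higher under water, against -0.04 over all probe sets. The dark arrays of this comparison also took part in choosing the members, so the 2 are not independent. With members chosen on the 24 h dark arrays in place of the 7 h ones, 47 of 208 (22.6%) were called higher and 18 (8.65%) lower, with a median of 0.14. The light arrays and shoot arrays still entered that choice. Without the second submerged array, 17 of the 114 were called higher at 7 h, and without the first dark array 22 were.

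Among the wall genes 4 of 11 (36.4%) rose under water at 7 h and the others of the 11 were not called. The share was close to the 34.2% of the whole set, but it leaves out any wall gene without a descriptive name. GH9C1 read 7.31 and 7.74 in submerged roots and rose by 1.44 (SE 0.239, limma adjusted p = 0.001). XTH26 read 5.64 and 6.32 and rose by 1.41 (SE 0.201, adjusted p = 0.00029). EXPA7 read 7.89 and 8.25 and rose by 1.14 (SE 0.193, adjusted p = 0.0013). In all 3, both submerged arrays lay above both dark arrays and below both light arrays.

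EXPA18 read 6.54 and 7.10 and rose by 0.78 (SE 0.215, limma adjusted p = 0.032), a call that was lost without the first dark array (adjusted p = 0.28) or the second submerged array (0.34). XTH20 read 6.25 and 6.33 in submerged roots, 0.18 from the dark mean (adjusted p = 0.5), and sks15 read 4.23 and 4.65, -0.07 from the dark mean (adjusted p = 0.87). XTH21, HRGP1, AT5G19800, sks16 and AT2G41480 were likewise not called. Of 10 listed root hair genes 3 had a probe set the table names, EXPA7, EXPA18 and XTH26. All 3 were members and were called higher at 7 h, against 34.2% of the whole set and 4.42% of all probe sets. With every measured gene already chosen by the rule, this count says nothing about root hair genes at large. The other 7 may lie among the unnamed probe sets.

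The largest rises at 7 h among members naming 1 gene were in 5 loci. AT4G33730 read 5.04 and 5.55 in dark roots and 6.87 and 8.30 under water, and rose by 2.29 (SE 0.289, limma adjusted p = 8.9e-05). AT5G22555 read 4.70 and 5.15 in dark roots, against 6.42 and 6.56 when submerged, and rose by 1.56 (SE 0.16, adjusted p = 1e-05). The second submerged array of AT4G33730 came within 0.3 of its light arrays, 8.39 and 8.52, while AT5G22555 stayed more than 1 below its own.

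AT3G49960 rose by 1.56 (limma adjusted p = 0.0036), AT5G04960 by 1.52 (adjusted p = 0.0018) and AT1G30870 by 1.49 (adjusted p = 0.00034). The call of AT3G49960 was lost without the first dark or the second submerged array, with adjusted p up to 0.08. The 2 members called lower were AT4G29690, at -0.59 (adjusted p = 0.03), and the unnamed 264404_at, at -0.67 (adjusted p = 0.043). AT4G29690 lost its call without the second dark array or either submerged array (adjusted p up to 0.3), and 264404_at without either dark array or the first submerged array (up to 0.33) and under both other scalings (0.067 and 0.052). A fit of the root arrays alone ended both calls (0.059 and 0.097).

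At 24 h, 14 members (12.3%) were called higher in submerged than in dark roots and 2 (1.75%) lower, against 1.39% higher and 1.83% lower over all probe sets. The median member was 0.21 higher. Of the 122 other probe sets with the root difference, 3 were called higher and 2 lower. With members chosen on the 7 h dark arrays, 15 of 145 (10.3%) were called higher and 8 (5.52%) lower. Calls at this time leaned on every array: 8 members were called without the first dark array, 3 without the second, 8 without the first submerged array and 3 without the second. At both times 11 members were called higher, which is 28.2% of those at 7 h and 78.6% of those at 24 h. The overlap over all probe sets was not counted, so these shares cannot be read as particular to the members.

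At 24 h AT5G04960 read 5.49 and 5.11 in dark roots and 6.83 and 6.45 under water, and rose by 1.34 (SE 0.269, limma adjusted p = 0.0085). AT5G06630 read 6.25 and 6.3 in dark roots, against 7.3 and 7.65 when submerged, and rose by 1.2 (adjusted p = 0.011). XTH26, at 5.67 and 5.33, rose by 0.97 (adjusted p = 0.011). The submerged arrays of the 3 lay above the dark arrays. The calls of AT5G04960 and XTH26 were lost without the second dark or the first submerged array (adjusted p up to 0.11 and 0.14), and that of AT5G06630 without either dark array or the second submerged array (up to 0.15). A fit of the root arrays alone also ended the calls of AT5G04960 (adjusted p = 0.055) and XTH26 (0.058).

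AT3G49960 rose by 1.15 (limma adjusted p = 0.046), AT4G25790 by 1.04 (adjusted p = 0.024) and AT1G30870 by 1.00 (adjusted p = 0.014). The call of AT3G49960 was lost without any 1 of the 4 arrays (adjusted p up to 0.23), that of AT4G25790 without either dark array or the second submerged array (up to 0.27), and that of AT1G30870 without the second dark array or either submerged array (up to 0.16). EXPA7 was 0.69 higher (adjusted p = 0.063) and GH9C1 0.77 higher (adjusted p = 0.095), neither called. The 2 members called lower were AT1G66800, at -0.61 (adjusted p = 0.021), and the unnamed 251545_at, at -1.07 (adjusted p = 0.025), and both were lost without the first dark or the second submerged array, the latter also without the second dark array (adjusted p up to 0.26 and 0.35). In a fit of the root arrays alone AT3G49960 (adjusted p = 0.15), AT4G25790 (0.081), AT1G66800 (0.08) and 251545_at (0.062) were not called, and AT3G49960 was also lost with a variance trend (0.079).

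**Figure D3:**
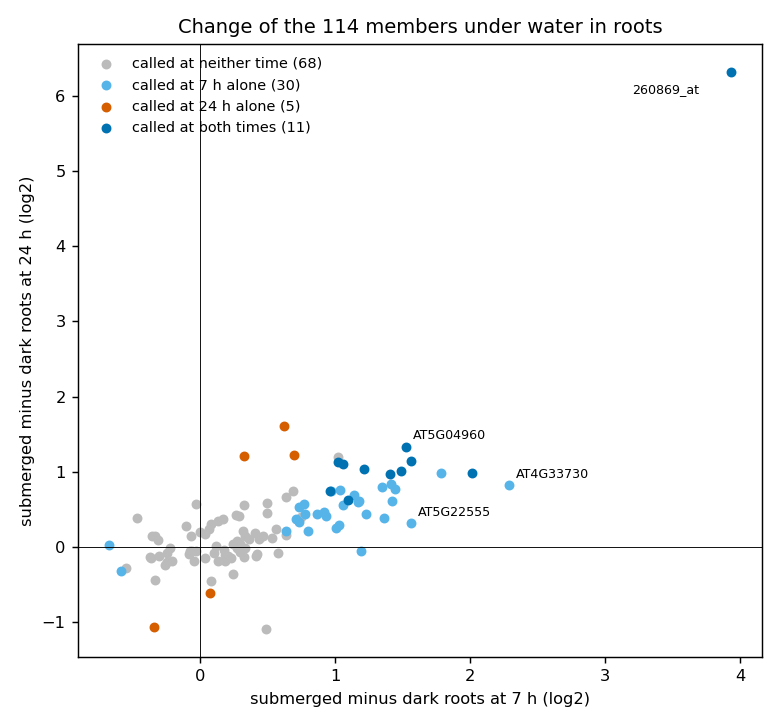
Each point is a member, placed by its log2 difference of submerged from dark roots at 7 h (horizontal) and 24 h (vertical), and coloured by the times at which it was called. The 68 members called at neither time crowd around 0, 30 were called at 7 h alone, 5 at 24 h alone and 11 at both, and 260869_at stands far out at the upper right.

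The unnamed 260869_at stood apart from the rest of the set. It read 7.88 and 8.60 in light roots and 4.64 and 5.99 in dark roots at 7 h, against 8.39 and 10.11 under water. At 24 h it read 4.24 and 4.84 in dark roots and 10.07 and 11.65 under water, above both light arrays. It rose by 3.94 at 7 h (SE 0.546, limma adjusted p = 0.00022) and by 6.32 at 24 h (adjusted p = 1.8e-06), the highest value of any probe set at 24 h. In shoots it rose at 7 h, from 3.90 and 3.72 to 7.29 and 8.47, by 4.07 (adjusted p = 4.1e-05), and at 24 h dark shoots read 4.22 and 3.89 and submerged shoots 4.85 and 4.44. These calls held under all 11 other settings run for each.

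In shoots few members moved under water. At 7 h, 3 of 114 were called higher and 3 lower, against 6.52% and 7.14% of all probe sets. At 24 h limma called 2 lower (against 6.02% of all probe sets) and none higher (against 5.9%), with 2 members higher and 5 lower at an unadjusted p under 0.05. Most members were near the low end of the scale in shoots, where a further fall would not show.

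The shoot changes lay mainly in members bright in shoots. The probe set 246481_s_at read 13.45 and 13.30 in dark shoots at 7 h and 9.27 and 10.08 under water, and fell by 3.70 (SE 0.358, limma adjusted p = 1e-06). At 24 h the dark shoots read 12.62 and 12.73 and the submerged ones 7.29 and 7.21, and fell by 5.43 (adjusted p = 1.5e-08), the lowest value of any probe set in that comparison. The unnamed 263876_at fell by 1.52 at 7 h (adjusted p = 4.5e-05) and by 1.72 at 24 h (adjusted p = 1.5e-05). For both probe sets the submerged and dark shoot arrays did not overlap.

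At 7 h 256964_at fell by 0.67 in shoots (limma adjusted p = 0.0044), while 248684_at rose by 0.82 (adjusted p = 0.03) and AT3G25290 by 0.65 (adjusted p = 0.047). The last 2 calls were lost without any single array of the comparison, with adjusted p up to 0.2 and 0.26.

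The difference between organs was tested as the root change under water minus the shoot change. The dark arrays of both organs in this comparison also took part in choosing the members, so the counts are not independent of the choice. At 7 h 27 members (23.7%) had a higher change in roots, against 3.82% of all probe sets. The test called none lower in roots (3.86% of all probe sets), with 3 members lower at an unadjusted p under 0.05. Among the 122 other probe sets with the root difference 19 (15.6%) were higher in roots. With members chosen on the 24 h dark arrays, 35 of 208 (16.8%) were higher in roots and 5 (2.4%) lower. The members' count was 11 without the second submerged root array, 13 without the first dark root array or the first dark shoot array, 15 without the first submerged shoot array and 16 without the second.

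At 24 h 9 members (7.89%) had a higher change in roots, against 2.98% of all probe sets and 13 (10.7%) of the 122 others. None was called lower by limma (3.88% of all probe sets), with 4 lower at an unadjusted p under 0.05. With members chosen on the 7 h dark arrays, 9 of 145 (6.21%) were higher and 3 (2.07%) lower. The members' count was 4 without the second submerged root array or the second submerged shoot array, and 5 without the first submerged root array, the first submerged shoot array or the second dark shoot array.

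AT4G33730 differed between the organs by 2.37 at 7 h (SE 0.408, limma adjusted p = 0.0014), AT1G30870 by 1.67 (adjusted p = 0.0023), XTH26 by 1.34 (adjusted p = 0.0068) and AT5G22555 by 1.27 (adjusted p = 0.0017). GH9C1 differed by 1.27 (adjusted p = 0.027), a call lost without the first dark root, the second submerged root, either dark shoot or the first submerged shoot array (adjusted p up to 0.13). At 24 h the expansin EXPA7 differed by 1.10 (adjusted p = 0.02) and AT5G04960 by 1.30 (adjusted p = 0.048). The first call was lost without the second array of any of the 4 groups (adjusted p up to 0.11), and the second without any 1 of the 8 arrays (up to 0.17), after quantile normalization again and with a variance trend (0.054 each). The shoot values of these 7 genes did not exceed 5.19 on any array.

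**Figure D4:**
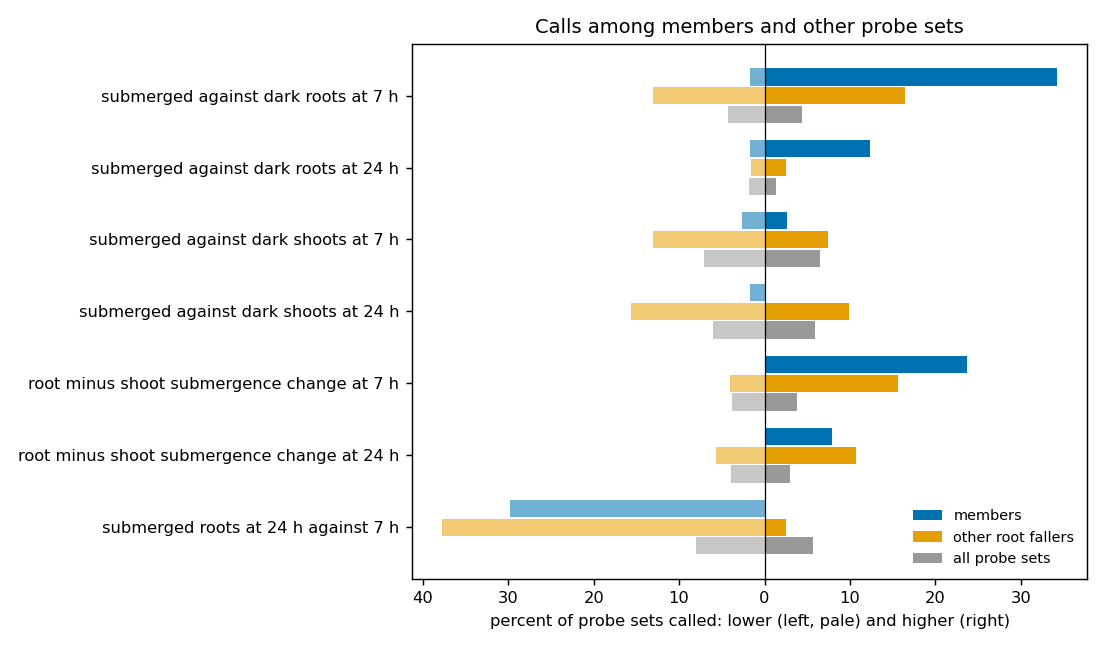
Bars give the percent of probe sets called lower (left, pale) and higher (right) in each of the 7 tested comparisons, for the 114 members, the 122 other probe sets with the same root difference and all 22746. Members were called higher in submerged roots at 7 h in 34.2% of cases, against 4.42% of all probe sets, where the dark arrays of that time had helped to choose them (22.6% with members chosen on the 24 h dark arrays), and lower at 24 h than at 7 h under water (29.8%) about as often as the 122 others (37.7%).

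The comparison of submerged roots at 24 h with those at 7 h used no array that chose the members. The 2 times differ in hour of the day as well as in duration, and these cannot be told apart. Of the 114 members 34 (29.8%) were called lower at 24 h, against 8.08% of all probe sets. None was called higher by limma (5.7% of all probe sets), with 2 higher and 49 lower at an unadjusted p under 0.05. The median member was 0.36 lower at 24 h, against 0.02 higher over all probe sets. The 122 other probe sets with the root difference gave 46 lower (37.7%), so the pattern was shared with them. The members' count was 17 called without the second 7 h array and 18 without the second 24 h array. Of the 39 members that rose under water at 7 h, 13 were among the 34. The submerged 7 h arrays enter both comparisons, so these calls are not independent, and the overlap over all probe sets was not counted.

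AT2G39040 read 7.46 and 8.30 in submerged roots at 7 h and 6.24 and 5.54 at 24 h, and fell by 1.99 (SE 0.271, limma adjusted p = 0.00011). AT4G29690 fell from 6.11 and 6.23 to 4.42 and 4.18, by 1.88 (adjusted p = 1.1e-06), and AT1G73120 from 6.74 and 6.01 to 4.65 and 4.60, by 1.75 (adjusted p = 0.00016). AT5G22555 fell by 1.68 (adjusted p = 3.3e-06) and AT4G33730 by 1.52 (adjusted p = 0.0017), so both loci had risen at 7 h and then came down. Of the 5, AT2G39040, AT4G29690 and AT1G73120 were also lower by over 1 at 24 h than at 7 h in darkness without water.

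Of the 11 wall genes 4 (36.4%) fell between 7 and 24 h under water, a share close to the 29.8% of the whole set and the 37.7% of the 122 others. Here too any wall gene without a descriptive name is left out. HRGP1 fell by 1.17 (limma adjusted p = 0.012), XTH20 by 0.90 (adjusted p = 0.00037), AT2G41480 by 0.76 (adjusted p = 0.0045) and sks16 by 0.49 (adjusted p = 0.036). XTH20 kept its call without any single array, whereas HRGP1 lost it without the second 7 h or the first 24 h array (adjusted p up to 0.25) and AT2G41480 without the second array of either time (up to 0.11). The call of sks16 was lost without the second 7 h array or either 24 h array (up to 0.37), under both other scalings (0.071 and 0.08) and in a fit of the root arrays alone (0.059). EXPA7, at -0.25 (adjusted p = 0.47), and XTH26, at -0.48 (adjusted p = 0.14), were not called.

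Relatives of members are given for the expansins, the XTHs and the nitrate genes. Of 16 expansins with a named probe set 4 (25%) lay at least 2.5 lower in dark than in light roots at both times, against 1.04% of all probe sets. Of these 4, 2 were members and 2 stayed out through their shoots. In submerged against dark roots at 7 h, 1 of the 14 expansins outside the set was called higher, EXLB1 at 0.88 (limma adjusted p = 0.017), and 5 lower, among them EXPB2 at -1.63 (adjusted p = 0.00034) and EXPA15 at -1.28 (adjusted p = 0.002). Over all probe sets 4.42% were called higher and 4.27% lower. The 2 expansins in the set were called higher, in the opposite direction to these 5 relatives. Their low values on the same dark arrays had helped to choose them, which favours a rise. The call of EXPA18 was also lost without the first dark or the second submerged array.

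Of 10 XTH genes with a named probe set 6 (60%) had this root difference. Of the 6, 3 were members, and XTH16, XTH18 and XTH19 stayed out because their shoots moved too. These shares rest on the values the rule used and were not tested. XTH19, for example, had means of 11.88 in light roots and 7.34 and 6.48 in dark roots at 7 and 24 h, with dark shoots 1.73 and 1.02 above light shoots. Of the 7 others, XTH16 was called higher in submerged roots at 7 h, by 0.79 (limma adjusted p = 0.026), and XTH32 lower, by -0.82 (adjusted p = 0.025).

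Of the nitrate genes 3 of 35 listed had a named probe set, and 1 was a member. AT3G25790, listed as HHO1, a repressor that acts in nitrate and phosphate responses, read 7.32 and 7.44 in light roots, 4.73 and 4.93 at 7 h and 4.33 and 4.52 at 24 h of darkness. Its relative HHO2 was 0.90 and 1.18 higher in dark than in light roots at 7 and 24 h, and HHO3 was 0.16 and 0.47 higher. Submerged roots differed from dark roots by -0.37 for AT3G25790 at 7 h (limma adjusted p = 0.12) and by -0.13 at 24 h (adjusted p = 0.78), neither called.

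Of the 62 loci that could be placed, AT5G37990 and AT5G38020 on chromosome 5 lay 3 genes apart, and AT5G47980 lay 9 genes from XTH20. The 46 members with no gene name were not placed, so clusters that hold them would be missed. Among them, 248727_at, 248728_at and 248729_at carry probe set numbers between 248725_at of AT5G47980 and 248732_at of XTH20. At the edge of the rule, AT2G25150 and AT4G22460 had the smallest qualifying root differences, -2.53 and -2.54, and 253699_at and AT5G62330, both at -2.49, just missed. At the edge of the shoot window 251226_at (0.70) and 263552_x_at (0.69) were inside, and 250983_at and 258618_at (0.72 each) outside.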

How the data were processed

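RNA from 20 samples was measured on ATH1 arrays. The authors deposited log2 expression values, made with RMA and affy per the submitters' processing notes, which name no version. RMA puts all arrays on 1 scale, so a difference is relative to the other probe sets, and low values are compressed near background. Nothing further was normalized. The 64 control probe sets of 22810 were left out. Genes were named through a platform table, which may be old and in which 13513 probe sets named 1 gene, and loci were matched to the TAIR10.1 RefSeq list. No genome build is named, so positions are not given.

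Each probe set was fitted with limma (3.58.1, R 4.3.3; lmFit and eBayes) on 10 group means over 20 arrays, with 10 residual and 7.04 prior degrees of freedom. Tests are two-sided, adjusted by Benjamini and Hochberg within each of 7 comparisons over 22746 probe sets, with a threshold of 0.05. P-values measure the spread between the 2 replicates of a group, pooled for each probe set over all 10 groups of both organs. Most members were near background in shoots, so their spread in roots may be understated. For AT4G33730, for example, the SD at 7 h under water was 1.011 in roots and 0.082 in shoots. In simulated arrays for submerged against dark roots at 7 h, 91% of changes of 1 and 99% of changes of 2 (log2) were called. Every simulated array of a probe set had the same spread, so recovery where roots vary more than shoots was not shown.

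The members and the 27 gene lists (442 entries, 72 with a named probe set) were chosen with earlier results of these data known. Named genes were the 12 members naming 1 gene with the largest root difference, up to 5 rises and 5 falls called per comparison, members on a list, up to 3 called relatives per list and those at the edges of the rule. The wall genes, GSTU25, RALFL27, ATC and the unnamed or shared probe sets given with values were chosen after their values were seen. Alternatives were a filter keeping 15129 probe sets above 6 on at least 2 arrays, quantile normalization again, median centring, arrays of 1 organ, a minimum change of 2-fold, an intensity trend with robust estimation, other rule limits, a block for the replicate number and leaving out each array. Choosing members with the dark arrays of the other time was added after seeing the data.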

Additional observations from a re-analysis of the deposited data

Results flagged for a closer look

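These are members whose submergence change differed between roots and shoots by a test of the difference itself (limma, 7 or 24 h, 2 arrays a group). At 7 h the root change exceeded the shoot change by 2.37 for AT4G33730, 1.67 for AT1G30870, 1.34 for XTH26, 1.27 for GH9C1 and 1.27 for AT5G22555. It exceeded the shoot change by 4.19 for 246481_s_at (adjusted p = 4.7e-05), whose dark and submerged root arrays overlap at 7 h (9.54 and 7.88 against 8.84 and 9.55), while in shoots it fell. At 24 h the difference was 1.30 for AT5G04960 and 1.10 for EXPA7. It was 5.73 for 260869_at (adjusted p = 0.00014), which rose in roots at both times and in shoots at 7 h. The calls of GH9C1 at 7 h and of AT5G04960 and EXPA7 at 24 h were lost when some single arrays were left out. Shoot values of the named genes in this list lay near background.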

How the results depend on the processing

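No named result reversed its direction under any setting run. Of the settings tried on counts and on the rule, 137 gave counts within 1.5 times of the reported one and 51 did not; for single members 452 kept their call and 92 lost it. A 2-fold minimum left 27 members and 374 probe sets called in roots at 7 h, 213 probe sets in roots at 24 h, 3 members and 862 probe sets in shoots at 7 h, 754 probe sets in shoots at 24 h, 880 and 852 probe sets for root minus shoot at 7 and 24 h, and 11 members and 511 probe sets for submerged roots at 24 against 7 h. Fits of 1 organ gave 8 members in roots and 4 in shoots at 24 h. A root limit of 2 gave 196 members, and members chosen on the 24 h dark arrays gave 65 called at 7 h. Leaving out single arrays gave 108 to 123 members by the rule, of which 105 to 114 were shared.

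Over members and then all probe sets, leaving out single arrays gave 18 to 44 and 693 to 1263 calls in roots at 7 h (41 and 1976 on all arrays), 3 to 8 and 275 to 518 in roots at 24 h (16 and 732), 4 to 4 and 1903 to 2406 in shoots at 7 h (6 and 3105), and 2 to 2 and 1618 to 1933 in shoots at 24 h (2 and 2712). For root minus shoot it gave 11 to 37 and 1141 to 1661 at 7 h (27 and 1747) and 4 to 7 and 961 to 1263 at 24 h (9 and 1561), and for submerged roots at 24 against 7 h 17 to 42 and 1469 to 2144 (34 and 3134). A group left with 1 array was taken to vary like the others.

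With the replicate number as a block the members called were 43, 17, 7, 2, 25, 9 and 33 in the same order of comparisons, and AT5G04960 lost its 24 h organ difference (adjusted p = 0.058). Correlations of the deviations of same-numbered arrays ran from -0.139 to 0.160 over 45 pairs of groups, 5 of them over 0.1, so the numbers were not taken to pair samples. The median member was nevertheless higher on the second array in dark (5.10 and 5.47) and submerged roots (5.59 and 5.96) at 7 h. It was lower on the second array in light roots (9.10 and 8.86) and in submerged roots at 24 h (5.38 and 5.20). Signal near background limits what the shoot values of most members can show.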
